A study of Mus musculus with 16 samples.

Results

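Ifi27, Ifi27l2a, Ifi35, Ifi44, Ifitm2, Ifitm3, Lgals3bp, Ly6e and Ly6a are 9 interferon-stimulated genes, 9 of 32285 in the gene list of each library, and every row with one of these symbols was taken. They were chosen by measured values, since the response of these hippocampi to DMXAA in WT mice was known when the list was drawn up. The WT comparison is therefore given as a description: no p-value of the 9 genes is printed for it, and nothing is read from its counts of calls. Single-nucleus RNA-seq libraries were made from the right hippocampus of 16 male mice, 1 mouse per library, with 4 WT and 4 KO mice given vehicle and 4 of each given DMXAA. WT mice were C57BL/6 (C57BL/6J in the study's methods) aged 2 months and 23 days. KO mice were Ifnar1-/-, lacking subunit 1 of the type I interferon receptor, and were aged 3 months and 3 days, so genotype, age and cohort cannot be told apart. DMXAA is a xanthenone acid that activates mouse STING, and it or vehicle was given by repeated intraperitoneal injection. All nuclei were sorted from frozen tissue by their DNA stain.

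STING is a sensor of cyclic dinucleotides made when DNA lies in the cytosol, and its activation leads through TBK1 and IRF3 to transcription of type I interferon. Secreted interferon binds the receptor IFNAR1/IFNAR2 on the same or other cells, and the kinases JAK1 and TYK2 then activate transcription factors that, with IRF9, bind the ISRE element of interferon-stimulated genes. In the brain, microglia, astrocytes, vascular cells and neurons all carry the receptor. Ifi27 and Ifi27l2a encode small hydrophobic proteins of mitochondrial and nuclear membranes. Ifitm2 and Ifitm3 encode transmembrane proteins that hinder fusion of virus with the host membrane. Ly6e and Ly6a encode surface proteins held by a glycolipid anchor, Ly6a being the stem cell antigen Sca-1. Lgals3bp encodes a secreted glycoprotein that binds galectins, Ifi35 a cytosolic partner of NMI, and Ifi44 a cytoplasmic protein.

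Several of the 9 genes lie close together in the mouse genome (GRCm38, GENCODE M21 genes). Ifi27 (chr12:103434211-103440239, plus strand) and Ifi27l2a (chr12:103442167-103443680, minus strand) were separated by 1927 bases. Ly6e (chr15:74955051-74959905, plus strand) and Ly6a (chr15:74994877-74998031, minus strand) were 34971 bases apart, and Ifitm2 (chr7:140954837-140955987) and Ifitm3 (chr7:141009586-141010770), both on the minus strand, were 53598 bases apart. Ifi35 (chr11:101448407-101458698, plus strand), Lgals3bp (chr11:118392751-118402092, minus strand) and Ifi44 (chr3:151730922-151749960, minus strand) stand alone. Ifitm2 and Ifitm3, the Ifi27 genes and the Ly6 genes have near copies, so the division of reads among such copies is uncertain.

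RefSeq promoters (GRCm38.p6, from 250 bases before the first transcribed base to the 50 bases from it on) were at hand for 5 of the 9 genes. The core of the ISRE was searched as GAAANNGAAA and the gamma-activated site GAS as TTCNNNGAA, on both strands, with matches that overlap kept. The ISRE core was found in 3.44% and GAS in 8.30% of 32851 mouse promoters of this length. The promoters that held a match are printed 5′ to 3′ on the strand of the gene, with matches in capitals, because these elements are where the factors of this pathway bind.
Ifi35 (chr11:101448162-101448461, plus strand): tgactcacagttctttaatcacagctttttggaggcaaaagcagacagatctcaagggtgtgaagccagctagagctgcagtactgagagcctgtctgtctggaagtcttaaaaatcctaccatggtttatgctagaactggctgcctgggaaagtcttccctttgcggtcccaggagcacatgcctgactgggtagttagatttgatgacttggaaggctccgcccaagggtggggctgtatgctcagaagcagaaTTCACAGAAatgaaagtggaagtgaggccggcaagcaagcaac
Ifitm2 (chr7:140955912-140956211, minus strand): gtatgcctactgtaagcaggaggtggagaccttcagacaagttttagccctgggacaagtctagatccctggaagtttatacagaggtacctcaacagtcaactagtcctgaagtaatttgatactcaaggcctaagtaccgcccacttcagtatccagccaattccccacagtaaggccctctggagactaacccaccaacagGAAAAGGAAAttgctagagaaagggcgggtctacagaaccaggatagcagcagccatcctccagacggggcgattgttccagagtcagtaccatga
Ifitm3 (chr7:141010695-141010994, minus strand): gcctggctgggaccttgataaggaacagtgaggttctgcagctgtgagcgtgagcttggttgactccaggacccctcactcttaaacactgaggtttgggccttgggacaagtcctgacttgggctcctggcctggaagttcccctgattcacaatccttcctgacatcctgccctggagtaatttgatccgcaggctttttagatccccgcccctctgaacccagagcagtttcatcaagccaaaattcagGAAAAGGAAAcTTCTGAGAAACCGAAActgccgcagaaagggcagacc
With positions counted from 1 at the 5′ end and the first transcribed base at 251, the Ifitm3 window held an ISRE core at 253 to 262, another at 270 to 279, and a GAS match at 264 to 272 that overlapped the latter. Ifitm2 had 1 ISRE core at 205 to 214, before its start, and Ifi35 had 1 GAS match at 258 to 266. The windows of Ifi44 and Lgals3bp held neither string of letters.

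After filtering, 108878 nuclei were kept, 5163 to 9237 per library, with 32418364 to 50937798 UMIs per library and medians of 3895 to 4918 UMIs per nucleus. Levels are given as CPM, the UMIs of the gene for every 1000000 UMIs of all genes in the same nuclei of a library. Nuclei were clustered and named by marker genes into 14 classes, and 9.96% stayed unnamed. Ifnar1, the gene disrupted in KO mice, was at 18.02 ± 1.94 CPM in WT and 11.7 ± 0.668 CPM in KO libraries (SD, n = 8 each), 64.9% of WT (two-sided exact permutation test, p = 0.000155, the smallest this design allows). WT DMXAA replicate 3 stood apart: its Ifnar1 was 13.5 CPM against 17.2 to 19.3 CPM in the other WT libraries and 10.7 to 12.8 CPM in KO libraries. Malat1, a nuclear long noncoding RNA, was 23912 CPM in it, within the 12680 to 27940 CPM of KO libraries and below the 53930 to 92193 CPM of the other WT libraries. Son, which encodes a protein of nuclear speckles, was 247 CPM in it, against 245 to 357 CPM in KO and 457 to 580 CPM in the other WT libraries. By these 3 genes the library labelled WT DMXAA replicate 3 lay at or near the KO libraries, and whether its label is right was not tested. It lay above all 8 KO libraries for Ifi27l2a (0.785 CPM against at most 0.0308), Ifi44 (0.432 against at most 0.0257) and Lgals3bp (2.47 against at most 1.06 CPM). The same held for Ifi27 (8.99 against at most 7.11 CPM), Ifi35 (2.36 against at most 1.98) and Ifitm3 (1.49 against at most 0.672). For Ifitm2, Ly6e and Ly6a it lay within the range of the KO libraries. The cause was not tested. It was kept under its label, and each mean, range and call of WT DMXAA includes it unless stated. Differences of the 9 genes that rest on this library are given with and without it.

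The 9 genes were distributed very differently over cell classes in WT vehicle hippocampus. Ifi27 was highest in choroid plexus (180 ± 27.7 CPM, SD over libraries with at least 20 nuclei), then endothelial nuclei (130 ± 22.2 CPM), fibroblasts (73.9 ± 8.27 CPM) and oligodendrocyte precursors (44.9 ± 8.77 CPM), and the ranges over libraries did not overlap between these neighbours. The WT vehicle means of endothelial nuclei, here and below, rest on 2 libraries. Ly6e was highest in endothelial nuclei (497 ± 86.2 CPM), with microglia (143 ± 44.3 CPM) and border macrophages (124 ± 43.3 CPM) below and not separated from each other by their spread. Excitatory neurons reached only 28.4 ± 3.26 CPM of Ly6e, yet gave 73.4% of its UMIs because they are 40.6% of kept nuclei and 67.3% of WT vehicle UMIs. A level in all nuclei together cannot tell fewer cells of a type from less RNA per cell.

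Ly6a came mostly from endothelial nuclei, which line the vessels: 92.4% of its WT vehicle UMIs came from this class, which holds 0.114% of all UMIs, and 45 of 81 such nuclei held at least 1. Its endothelial level was 1327 and 619 CPM in the WT vehicle libraries with enough nuclei, and the next class, microglia, had 1 UMI in the group. Ifitm2 (217 ± 144 CPM) and Ifitm3 (270 ± 219 CPM) were also highest in endothelial nuclei, with no overlap with the next class. These ranges span 2 libraries, and the lower one, WT vehicle replicate 3, held 5 UMIs of each gene. Both were seen in fibroblasts, at 25.6 and 23.4 ± 3.30 CPM. Ifi35 led in border macrophages (62.6 ± 32.7 CPM), endothelial nuclei (49.5 CPM), microglia (39.7 ± 8.86 CPM) and fibroblasts (35.0 CPM), with overlapping ranges. Lgals3bp was at 64.9 ± 67.0 CPM in border macrophages, an SD as large as the mean, and at 9.02 ± 2.99 CPM in microglia. Ifi27l2a with 25 UMIs and Ifi44 with 13 UMIs over all WT vehicle nuclei were too sparse to rank classes. The highest class was the same for 9 of 9 genes when each nucleus was first scaled to 10000 UMIs.

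**Figure D1:**
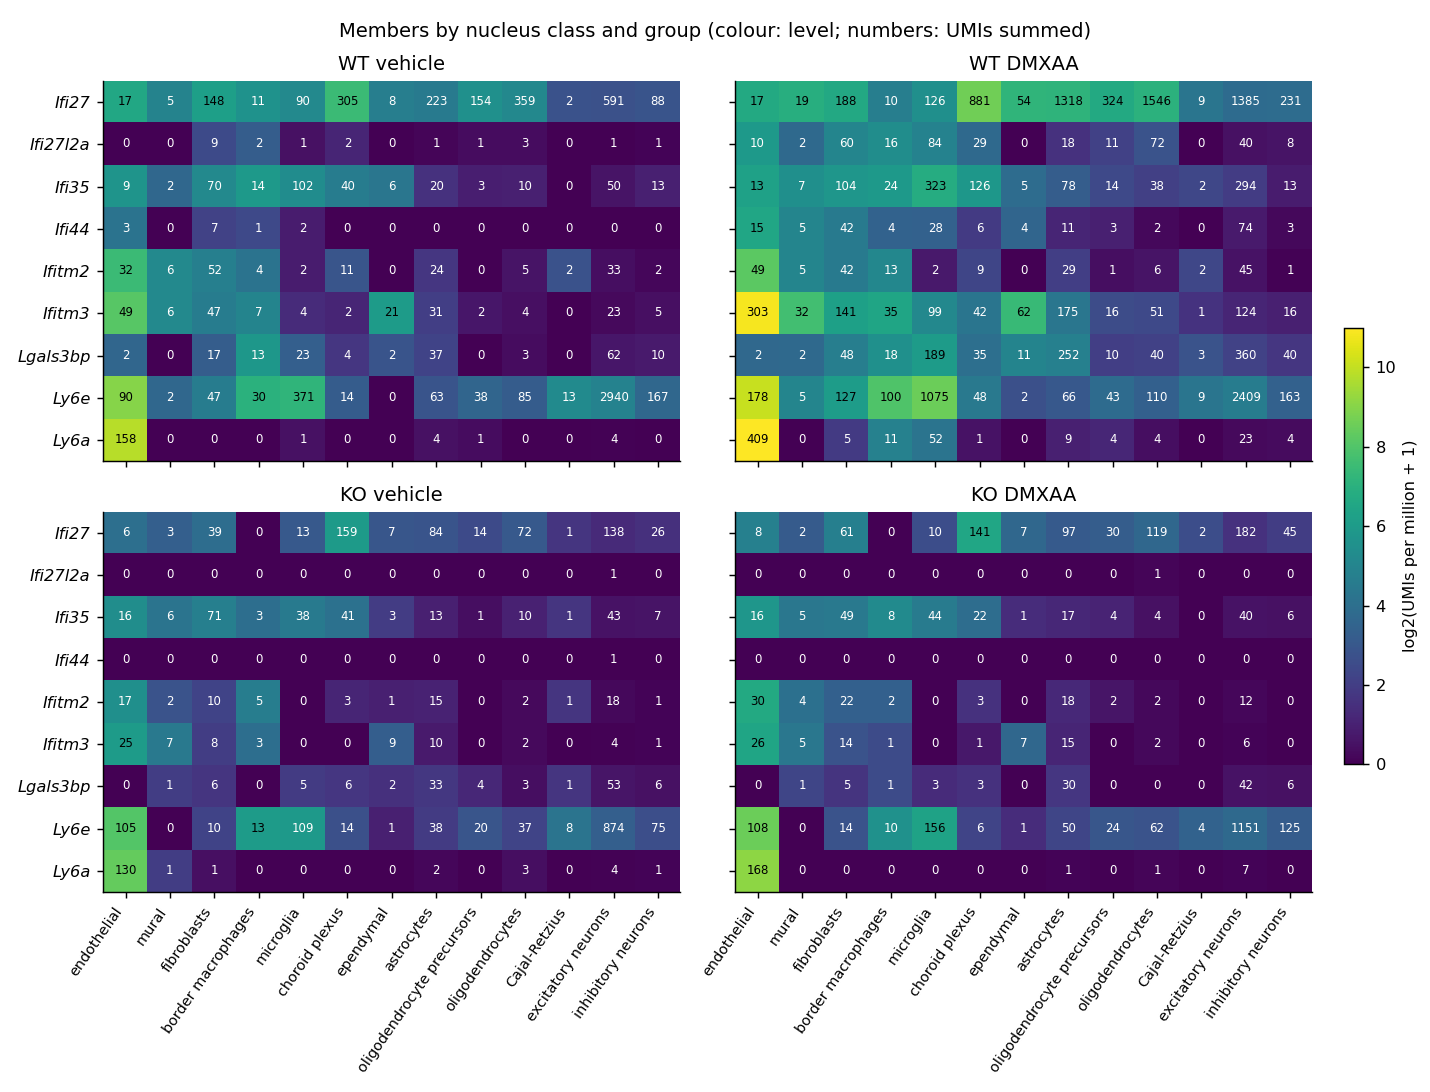
Heat map of the 9 genes (rows) by nucleus class (columns) in each of the 4 groups, with color for log2(CPM + 1) of the group and the printed number for UMIs summed over its libraries. In WT vehicle, Ly6a has 158 UMIs in endothelial nuclei and Ifi27 its highest level in choroid plexus, and the Ifi27l2a and Ifi44 rows hold 1 UMI or none over the KO groups' classes.

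DMXAA in WT mice went with higher levels of most of the 9 genes in the sum over all kept nuclei. Ifi27 was 11.6, 17.7, 15.1 and 9.37 CPM in WT vehicle replicates 1 to 4 and 49.1, 53.4, 8.99 and 63.5 CPM in WT DMXAA replicates 1 to 4. Lgals3bp was 0.962, 1.37, 1.02 and 1.40 CPM with vehicle and 9.62, 6.94, 2.47 and 9.34 CPM with DMXAA. Every DMXAA library exceeded every vehicle library for Lgals3bp, whereas for Ifi27 replicate 3 was the lowest of all 8 WT libraries. Ifitm3 was 0.861, 2.32, 1.13 and 1.07 CPM with vehicle and 10.6, 10.1, 1.49 and 9.55 CPM with DMXAA, and Ifi35 was 2.13, 2.40, 2.53 and 2.05 CPM with vehicle and 11.6, 7.85, 2.36 and 7.42 CPM with DMXAA. For both genes, replicate 3 lay inside the vehicle range and the other 3 DMXAA libraries lay above it.

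Ifi27l2a and Ifi44 were nearly silent without DMXAA. Ifi27l2a had 25 UMIs in WT vehicle (0.101 to 0.309 CPM) and 369 in WT DMXAA, at 4.09, 2.04, 0.785 and 3.16 CPM. Ifi44 had 13 and 202 UMIs, and was at 3.35, 0.914, 0.432 and 0.730 CPM with DMXAA. All 4 DMXAA libraries exceeded all 4 vehicle libraries for both. Ly6a was 0.481, 2.68, 0.743 and 0.525 CPM with vehicle and 2.91, 6.59, 0.648 and 4.47 CPM with DMXAA. Ly6e was already abundant with vehicle, at 23.3, 25.3, 28.9 and 26.4 CPM, and was 41.9, 35.4, 10.1 and 34.1 CPM with DMXAA. Ifitm2 was 0.456, 1.96, 1.27 and 0.9496 CPM with vehicle and 1.95, 1.72, 0.471 and 1.92 CPM with DMXAA. Ifitm2 with DMXAA lay within the vehicle range, and for Ly6e 3 DMXAA libraries were above and replicate 3 below all vehicle libraries.

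**Figure D2:**
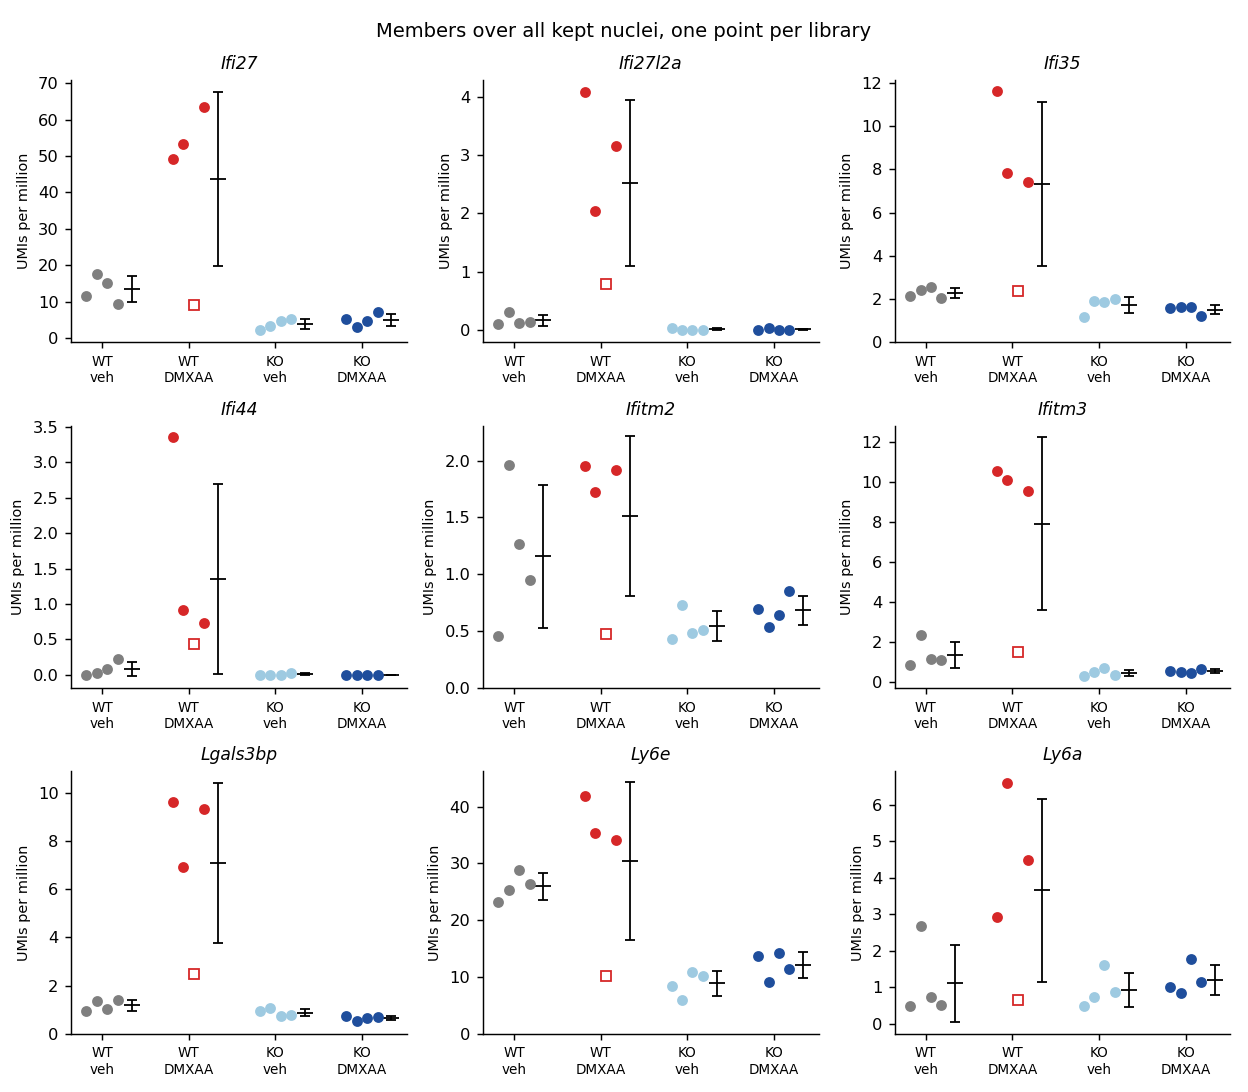
CPM of each gene in all kept nuclei, 1 point per library in the 4 groups, with the black dash and bar for mean ± SD and the open square for WT DMXAA replicate 3. Every KO library lies below WT DMXAA replicates 1, 2 and 4 for each gene, and replicate 3 falls below the other 3 WT DMXAA libraries for 9 of 9 genes.

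In the fit over all kept nuclei (edgeR quasi-likelihood, 20104 genes), log2 differences for WT DMXAA minus WT vehicle were 3.93 ± 0.48 (SE) for Ifi27l2a, 2.57 ± 0.28 for Lgals3bp, 2.54 ± 0.42 for Ifitm3, 1.69 ± 0.29 for Ifi35 and 1.69 ± 0.39 for Ifi27. Ifi44 was at 3.96 ± 0.78, Ly6a at 1.70 ± 0.58, Ifitm2 at 0.39 ± 0.37 and Ly6e at 0.23 ± 0.25. A gene was called when its adjusted p was below 0.05 and its log2 difference exceeded 0.1 in size, which held for Ifi27l2a, Ifi35, Ifitm3 and Lgals3bp, 4 of 9 higher and 0 lower, where 0.413% of all genes were called higher and 0.0249% lower. The median difference was 1.70 over the 9 genes and 0.01 over all genes. Without replicate 3, 6 of 9 were called, Ifi27 and Ifi44 added (1.45% of genes in either direction). The differences were then 4.22 ± 0.73 for Ifi44, 4.19 ± 0.39 for Ifi27l2a, 2.86 ± 0.26 for Ifitm3, 2.81 ± 0.18 for Lgals3bp, 2.00 ± 0.24 for Ifi27 and 1.94 ± 0.20 for Ifi35, and 2.03 ± 0.49 for Ly6a, 0.65 ± 0.32 for Ifitm2 and 0.47 ± 0.15 for Ly6e, which were not called. By class, 10 of 35 tests of these genes were called higher and 0 lower, in 5 classes (0.189% of all class tests higher, 0.0819% lower), and 24 of 36 without replicate 3 (1.54%). Since the genes were chosen on this contrast, nothing is read from any of these counts. All 9 genes passed the low-count filter in all nuclei. Over the 13 classes fitted 35 pairs of gene and class passed, from 6 genes in astrocytes to 0 in Cajal-Retzius cells, border macrophages and mural cells, and in microglia 4 did (Ifi27, Ifi35, Lgals3bp and Ly6e).

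In microglia, the resident macrophages of the brain, genes nearly at 0 with vehicle were found with DMXAA. Ifi27l2a had 1 UMI in WT vehicle microglia and 84 UMIs in 81 of 1460 WT DMXAA nuclei, at 47.9, 34.2, 8.38 and 28.5 CPM, a ratio of pooled levels of 73.8 (95% interval 12.9 to 2947 for counting error only, and a ratio of 94.6 without replicate 3). Ly6a likewise went from 1 UMI to 52, at 29.6, 21.7, 7.18 and 14.9 CPM, a ratio of 45.7 (7.84 to 1838, and 56.5 without replicate 3). Ifi44 had 2 UMIs with vehicle and 28 with DMXAA (ratio 12.3, interval 3.1 to 106, and 6.96 without replicate 1, which gave 16 of the 28, or 15.4 without replicate 3). In none of the 3 genes did a vehicle library reach the level of any DMXAA library, replicate 3 included. Endothelial markers, summed over 8 genes, were at 20.8 to 34.8 CPM in WT vehicle microglia and 9.32 to 24.4 CPM in WT DMXAA microglia, with 6 and 8 of the 8 detected. Choroid plexus markers, summed over 7 genes, were at 12.8 to 253 CPM and 49.1 to 769 CPM, with 5 and 6 of the 7 detected. The part of RNA from these cells in the microglial levels was not tested. The 8 microglial markers were all detected, at 9836 to 10649 CPM with vehicle and 6436 to 9749 CPM with DMXAA.

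Microglial Ly6e was 92.3, 157, 126 and 196 CPM in WT vehicle and 525, 533, 80.2 and 397 CPM in WT DMXAA, a log2 difference of 1.42 ± 0.36, or 1.74 ± 0.16 without replicate 3. Ifi35 was 51.7, 30.5, 39.8 and 37.0 CPM with vehicle and 203, 126, 34.7 and 93.7 CPM with DMXAA (1.52 ± 0.34, or 1.80 ± 0.22 without replicate 3). Lgals3bp was 6.26, 8.01, 13.3 and 8.53 CPM with vehicle and 81.6, 63.7, 19.2 and 101 CPM with DMXAA (2.86 ± 0.40, or 3.15 ± 0.29). For Ly6e replicate 3 was below all vehicle libraries, for Ifi35 it was within their range, and for Lgals3bp it was above them. Ifitm3 was 0, 4.81, 0 and 1.42 CPM with vehicle and 64.8, 37.3, 2.39 and 36.7 CPM with DMXAA, with replicate 3 within the vehicle range. Ifi27, in contrast, was 42.3, 36.9, 36.5 and 25.6 CPM with vehicle and 42.2, 62.1, 11.97 and 62.5 CPM with DMXAA in microglia, so the ranges overlapped.

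**Figure D3:**
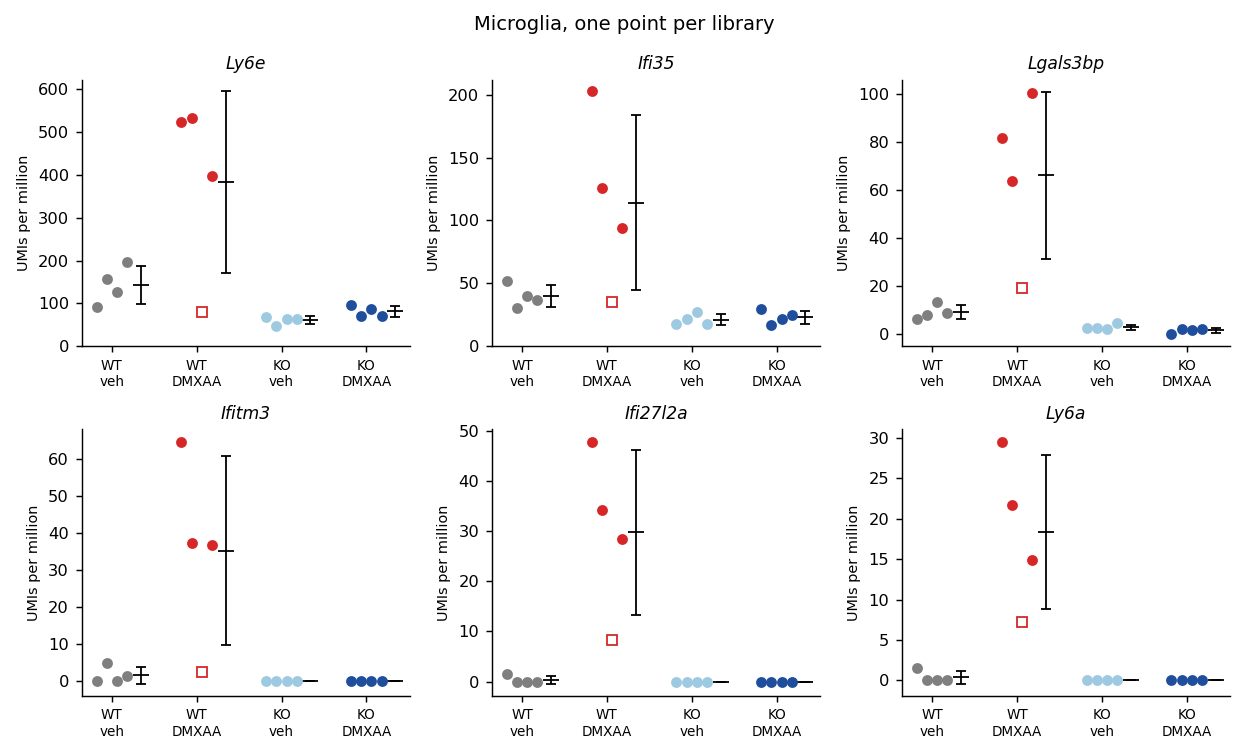
CPM in microglia of Ly6e, Ifi35, Lgals3bp, Ifitm3, Ifi27l2a and Ly6a, 1 point per library by group, with the dash and bar for mean ± SD and the open square for WT DMXAA replicate 3. Ifi27l2a and Ly6a have 1 UMI each in WT vehicle and 0 in KO microglia, and replicate 3 of WT DMXAA is the lowest of its group in each panel.

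Replicate 3 apart, Ifi27 was higher with DMXAA in other glia and in neurons. In astrocytes it was 20.5, 26.6, 24.99 and 17.6 CPM in WT vehicle and 196, 175, 27.6 and 177 CPM in WT DMXAA (log2 difference 2.76 ± 0.38, or 3.1 ± 0.14 without replicate 3). Oligodendrocytes, the myelin-forming cells, held 31.9, 39.6, 36.0 and 28.3 CPM with vehicle and 173, 160, 36.7 and 161 CPM with DMXAA (2.07 ± 0.31, or 2.37 ± 0.11). In the 3 libraries per group with enough choroid plexus nuclei, Ifi27 was 158, 171 and 211 CPM with vehicle and 447, 378 and 395 CPM with DMXAA (1.15 ± 0.16), and WT DMXAA replicate 3, with 10 such nuclei, did not enter this fit. Replicate 3 lay just above the vehicle libraries in astrocytes and within their range in oligodendrocytes. Oligodendrocyte precursors held 46.9, 56.1, 35.8 and 40.6 CPM with vehicle and 142, 121, 20.4 and 116 CPM with DMXAA (1.22 ± 0.33, or 1.54 ± 0.19 without replicate 3). Excitatory neurons were far lower, at 5.20, 6.75, 6.05 and 4.77 CPM with vehicle and 18.2, 19.2, 3.84 and 18.6 CPM with DMXAA (1.40 ± 0.36, or 1.69 ± 0.24). Within them, WT vehicle CA1 neurons ranged from 12.4 to 20.4 CPM and dentate granule neurons from 1.26 to 2.76 CPM, and with DMXAA CA1 neurons were 38.8, 39.5, 7.14 and 46.0 CPM.

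**Figure D4:**
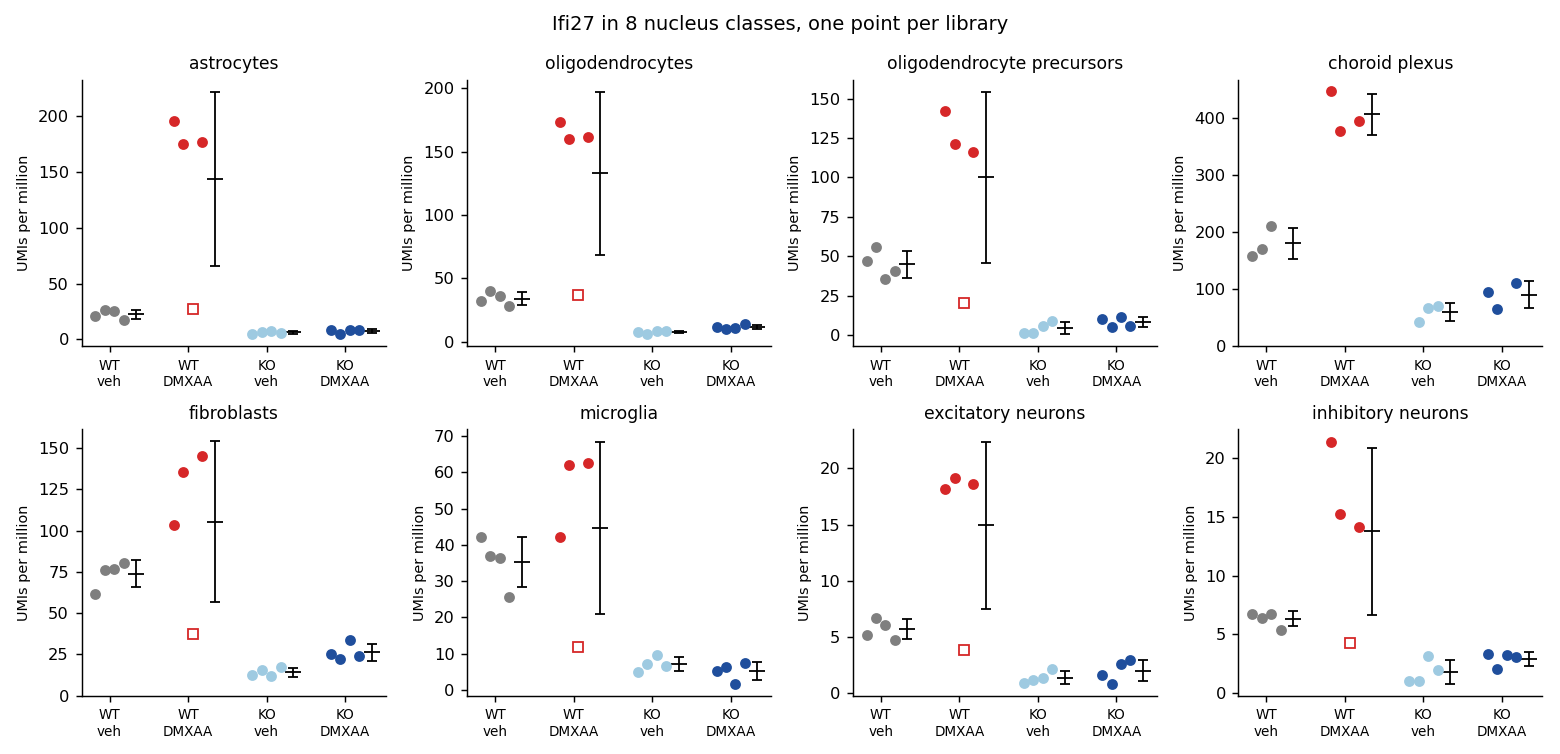
Ifi27 in CPM by nucleus class and group, 1 point per library, with the dash and bar for mean ± SD and the open square for WT DMXAA replicate 3. In astrocytes all WT DMXAA libraries lie above the WT vehicle libraries, replicate 3 only just. In oligodendrocytes, their precursors and excitatory neurons all but replicate 3 do. KO libraries are lower than WT vehicle libraries in each class drawn.

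Astrocytes and excitatory neurons shared the pattern for Lgals3bp. It was 3.00, 4.22, 2.42 and 4.64 CPM in WT vehicle astrocytes and 37.8, 32.3, 10.6 and 29.8 CPM with DMXAA (2.98 ± 0.40, or 3.23 ± 0.30 without replicate 3), and 0.557, 0.754, 0.420 and 0.633 CPM in WT vehicle excitatory neurons and 5.97, 3.75, 1.51 and 3.89 CPM with DMXAA (2.68 ± 0.33, or 2.90 ± 0.27). All DMXAA libraries, replicate 3 included, were above all vehicle libraries in both classes. Ifitm3 in astrocytes was 2.00, 4.22, 2.82 and 3.095 CPM with vehicle and 30.6, 26.1, 2.03 and 19.7 CPM with DMXAA (2.72 ± 0.50, or 3.09 ± 0.27 without replicate 3). Ifi35 in excitatory neurons was 0.223, 0.528, 0.420 and 0.745 CPM with vehicle and 5.46, 3.13, 1.15 and 2.54 CPM with DMXAA (2.68 ± 0.41, or 2.92 ± 0.35), again with no overlap. Ifi44 had 0 UMIs in WT vehicle and 74 UMIs in WT DMXAA excitatory neurons, at least 25.04-fold higher when the vehicle group is set to 3 UMIs. Replicate 1 gave 55 of these 74 UMIs and replicate 4 gave 0, and without replicate 1 the bound was 8.35-fold, and without replicate 3 it was 34.3-fold. Ly6e in excitatory neurons overlapped between the groups, at 26.0, 26.6, 33.1 and 27.9 CPM with vehicle and 34.9, 28.7, 9.16 and 29.7 CPM with DMXAA (−0.13 ± 0.25, or 0.11 ± 0.16 without replicate 3). Inhibitory neurons were alike for Ly6e, with a difference of 0.03 ± 0.23 without replicate 3.

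Microglial markers summed over 8 genes, a measure of RNA from other cells in a nucleus droplet, were at 68.7 to 91.3 CPM in WT vehicle excitatory neurons and 29.9 to 121 CPM with DMXAA. In astrocytes they were at 99.6 to 137 CPM with vehicle and 80.8 to 127 CPM with DMXAA. Their part in the low levels in these classes was not tested.

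Fibroblasts and endothelial nuclei come from the meninges and vessels. In fibroblasts Ifitm3 was 25.9, 24.3, 24.9 and 18.6 CPM with vehicle and 170, 70.4, 20.3 and 44.3 CPM with DMXAA (1.75 ± 0.48, or 2.10 ± 0.37 without replicate 3). Ly6e there was 23.9, 22.5, 31.7 and 16.5 CPM with vehicle and 161, 31.5, 25.4 and 69.6 CPM with DMXAA (1.64 ± 0.48, or 1.94 ± 0.41), and Ifi27l2a went from 9 to 60 UMIs. Ifitm2 in fibroblasts overlapped between the groups, at 15.9, 34.7, 24.9 and 26.8 CPM with vehicle and 33.1, 24.1, 5.07 and 34.8 CPM with DMXAA. Among WT DMXAA endothelial nuclei, Ifitm3 UMIs numbered 48 in 2 nuclei of replicate 1, 141 in 21 of replicate 2, 2 in 21 of replicate 3 and 112 in 9 of replicate 4, against 49 in 81 WT vehicle nuclei. Ly6a UMIs in these nuclei numbered 63, 209, 20 and 117 in WT DMXAA replicates 1 to 4 and 16, 100, 27 and 15 in WT vehicle replicates 1 to 4. The ratio of pooled levels was 2.77 (2474 against 895 CPM), or 4.46 without WT DMXAA replicate 3 (389 UMIs in 32 nuclei) and 4.32 without WT vehicle replicate 2. Only 2 WT libraries per treatment reached 20 endothelial nuclei, replicate 3 among them, and no call was made in this class.

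Without the receptor, none of these differences was called. In KO libraries DMXAA was tested against vehicle on mice other than those of the WT comparison, but the spread was estimated over all libraries, WT included. In all kept nuclei 0 of 9 genes were called, and 0 of 35 tests in the classes. Without WT DMXAA replicate 3 the edgeR adjusted p of Lgals3bp in all nuclei was 0.235, again not called. The edgeR quasi-likelihood test called 0% of all genes in all nuclei and 0% in the classes, so the counts of the 9 genes equal the background. Ifi27l2a and Ifi44, with at most 1 UMI in a KO group, and 19 of the 35 class tests did not pass the low-count filter on the KO libraries alone. Over the 7 genes that did, the median log2 difference in all nuclei was 0.25, and over the other 16 class tests it was 0.47, with 13 positive and 3 negative. Over all 35 class tests it was 0.48, with 27 positive and 8 negative, against 0.00 over all genes. At an unadjusted p under 0.05 there were 0 of 9 and 3 of 35 (1108 of 20104 and 5484 of 106251 over all genes), and DESeq2 and limma also called 0 of the 9 genes and 0 of the 35. The 3 were Ifi27 in choroid plexus (0.55 ± 0.21) and fibroblasts (0.84 ± 0.38) and Ly6e in oligodendrocytes (0.62 ± 0.29), all positive, and the lowest adjusted p by edgeR was 0.516.

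Ifi27 was 2.13, 3.17, 4.59 and 5.16 CPM in KO vehicle and 5.27, 3.02, 4.64 and 7.11 CPM in KO DMXAA (log2 difference 0.32, 95% interval −0.55 to 1.20, edgeR adjusted p = 0.853). Ly6e was 8.36, 5.89, 10.96 and 10.2 CPM with vehicle and 13.8, 9.16, 14.2 and 11.3 CPM with DMXAA (0.38, −0.18 to 0.94, edgeR adjusted p = 0.785). Lgals3bp was 0.925, 1.06, 0.741 and 0.770 CPM with vehicle and 0.728, 0.534, 0.670 and 0.703 CPM with DMXAA (−0.48, −1.14 to 0.18, edgeR adjusted p = 0.780). The groups overlapped for Ifi27 and Ly6e, whereas all KO DMXAA libraries were below the KO vehicle libraries for Lgals3bp. The intervals reach up to 1.20 log2 units for Ifi27, so a missing call does not show that a gene stayed the same. Ifi35 was 1.17, 1.91, 1.88 and 1.98 CPM with vehicle and 1.57, 1.63, 1.64 and 1.20 CPM with DMXAA. Ifitm3 was 0.308, 0.469, 0.672 and 0.359 CPM with vehicle and 0.553, 0.507, 0.446 and 0.644 CPM with DMXAA, while Ifitm2 and Ly6a differed by 0.25 ± 0.41 and 0.28 ± 0.60 log2 units. Ifi27l2a had 1 UMI in each KO group. Ifi44 had 1 UMI in KO vehicle and 0 in KO DMXAA, and folds cannot be formed from such counts.

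In fibroblasts Ifi27 was 12.3, 15.4, 11.7 and 17.4 CPM in KO vehicle and 25.5, 22.3, 33.8 and 24.0 CPM in KO DMXAA, and 61.8, 76.2, 77.0 and 80.5 CPM in WT vehicle and 104, 135, 37.2 and 145 CPM in WT DMXAA. All KO DMXAA libraries were above the KO vehicle libraries, and 3 of 4 WT DMXAA libraries were above the WT vehicle libraries. The log2 difference was 0.84 ± 0.38 in KO and 0.54 ± 0.28 in WT, or 0.85 and 0.84 without WT DMXAA replicate 3.

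In microglia of either KO group no UMI of Ifi27l2a, Ly6a, Ifi44 or Ifitm3 was found. Microglial Lgals3bp was 2.54, 2.38, 1.93 and 4.43 CPM with vehicle and 0, 2.10, 1.78 and 1.88 CPM with DMXAA. Ly6e there was 68.5, 47.7, 63.8 and 64.3 CPM with vehicle and 95.9, 69.4, 87.0 and 71.3 CPM with DMXAA, so all 4 DMXAA libraries were above the vehicle libraries, but no call was made. In astrocytes Ifi27 was 4.91, 6.27, 7.67 and 5.79 CPM with vehicle and 8.26, 4.81, 8.37 and 8.70 CPM with DMXAA.

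The WT response minus the KO response, which contains the contrast used to choose the genes, was 3.05 ± 0.41 log2 units for Lgals3bp, the only 1 of 9 called in all nuclei (0.0547% of all genes called higher), and 0 of 35 class tests were called (0.0179%). Without WT DMXAA replicate 3, 3 of 9 and 7 of 36 were called (0.265% and 0.112%). Since the contrast holds the values the genes were chosen on, nothing is read from these counts.

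Without DMXAA, several of the genes were lower in KO than in WT hippocampus, in a comparison that shares its WT vehicle libraries with the one on DMXAA in WT. In all kept nuclei 4 of 9 were called lower and 0 higher, or 3 of the 7 that passed the low-count filter on the WT vehicle and KO vehicle libraries alone. Of all genes, 26.4% were called lower and 22.1% higher, so a large part of the transcriptome differed between these cohorts and the members' count is to be read against that. These shares are over all genes of the fit and were not taken under the narrower filter. The median log2 difference was −0.75 over those 7 genes, −1.21 over the 9 and −0.06 over all genes tested. Ly6e was at 26.0 ± 2.33 CPM in WT and 8.86 ± 2.26 CPM in KO (SD, n = 4). Its fitted log2 difference was −1.22 ± 0.26 (edgeR adjusted p = 0.00190). Ifi27 was at 13.4 ± 3.68 CPM in WT and 3.76 ± 1.37 CPM in KO, with a fitted difference of −1.49 ± 0.40 (edgeR adjusted p = 0.00724). By CPM, KO vehicle and WT vehicle libraries did not overlap for either gene. The fit scaled libraries by TMM factors, whereas CPM uses total UMIs. Fitted differences between genotypes, here and below, are therefore not log2 ratios of the CPM, and for both genes they are smaller in size. Ifi27l2a went from 25 UMIs to 1, a ratio of 0.0416 with a counting interval of 0.00101 to 0.254. It and Ifi44, with 13 UMIs against 1, passed the filter through the WT DMXAA libraries, on which the genes were chosen, and are given as counts with no p.

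Ifitm3 differed by −1.21 ± 0.47 (edgeR adjusted p = 0.0427), a call lost, at adjusted p of 0.0505 to 0.161, when any 1 of 10 libraries was left out: WT vehicle replicates 2, 3 and 4, KO vehicle replicates 1, 2 and 4, and all 4 of KO DMXAA. Without WT DMXAA replicate 3, which bears on this comparison through the shared estimate of the spread, the call held (−1.21 ± 0.30, edgeR adjusted p = 0.00258). Ifitm2 (−0.75 ± 0.40, edgeR adjusted p = 0.127) was called only without WT vehicle replicate 1 (−1.01, edgeR adjusted p = 0.0362). Ifi35 (−0.05 ± 0.30), Lgals3bp (−0.11 ± 0.29) and Ly6a (0.09 ± 0.60) were at edgeR adjusted p of 0.892, 0.761 and 0.905. By CPM, however, every KO library lay below every WT vehicle library for Ifi35 (at most 1.98 against at least 2.05 CPM). The small fitted difference of Ifi35 thus rests on how the fit scaled the libraries. For Lgals3bp and Ly6a the KO vehicle and WT vehicle libraries overlapped. For Ly6a, endothelial markers over all kept nuclei were at 76.0 to 103 CPM in KO vehicle against 27.7 to 68.0 CPM in WT vehicle, and their part in its level was not tested. Within endothelial nuclei Ly6a was 123, 232, 519 and 453 CPM in KO vehicle, below the 1327 and 619 CPM of the WT vehicle libraries with enough nuclei, but was not called (−1.66 ± 0.72, edgeR adjusted p = 0.511).

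**Figure D5:**
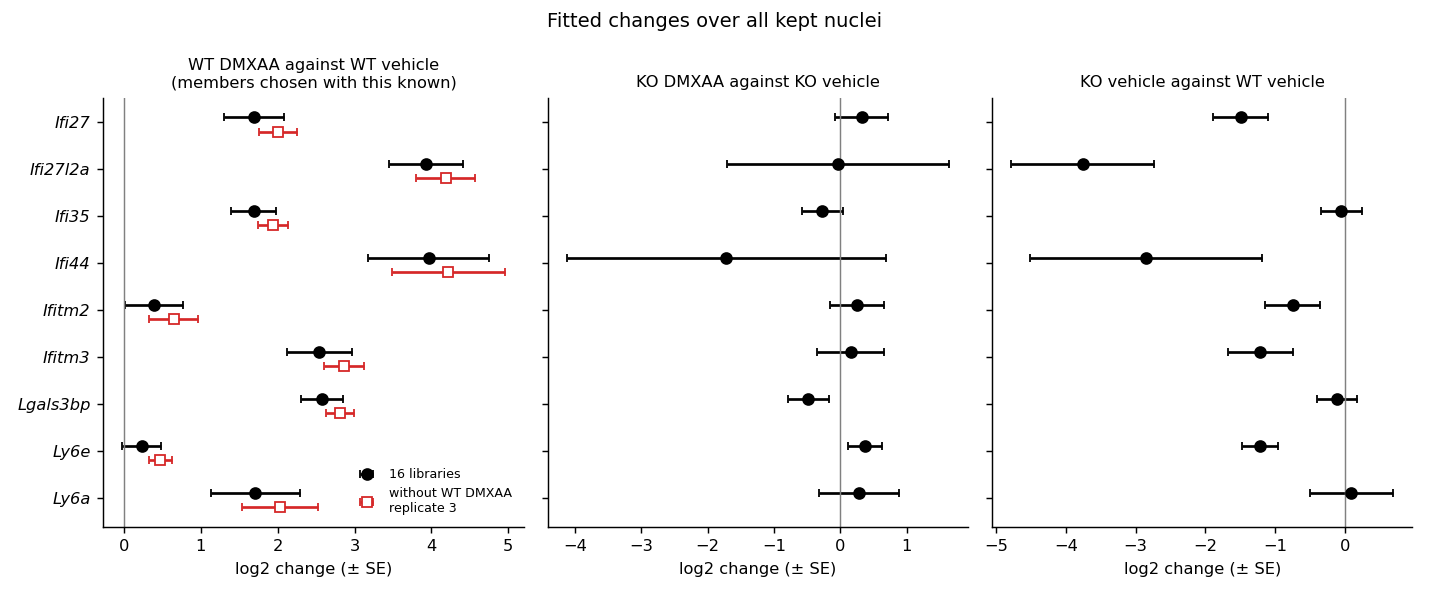
Log2 difference ± SE of each gene in all kept nuclei for WT DMXAA against WT vehicle (red squares without WT DMXAA replicate 3), KO DMXAA against KO vehicle and KO vehicle against WT vehicle, on axes that differ between panels. In KO vehicle 8 of 9 genes lie below 0, and 0 of 9 were called for KO DMXAA. The Ifi27l2a and Ifi44 points rest on at most 1 UMI in each KO group.

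Class by class, 13 of 35 tests were called lower in KO vehicle and 0 called higher, in 8 classes (37.1%, against 14.5% of all class tests called lower and 12.9% higher). Of the 22 tests that passed the filter on the WT vehicle and KO vehicle libraries alone, 11 were called lower. The shares over all genes were not taken under that filter. They also differed by class, from 4598 of 17637 called lower in excitatory neurons to 0 of 2594 in endothelial nuclei. Without WT DMXAA replicate 3 the set of tests changed. The endothelial fit dropped out. Tests came in of Ifi27l2a and Ifitm3 in microglia, Ifi27l2a and Lgals3bp in oligodendrocytes, Ifitm3 in excitatory neurons and Ly6e in border macrophages. In this set 19 of 36 were called, all lower. These include tests of Ifitm3, and of Ifitm2 and Ly6e in fibroblasts, that did not pass the filter on the WT vehicle and KO vehicle libraries alone. Such tests entered through the WT DMXAA libraries, on which the genes were chosen, so nothing is read from this count. Over all genes 20616 of 103283 class tests were then called lower, and 38.5% in either direction. Ly6e was then called also in microglia (−1.08, edgeR adjusted p = 0.000134), inhibitory neurons (−0.81, edgeR adjusted p = 0.0102) and astrocytes (−1.004, edgeR adjusted p = 0.0334), and the other gains were tests of Ifitm3 that had not passed that filter. Ifi27 was called lower in 8 of the 8 classes where it passed that filter. The differences ran from −1.40 ± 0.41 in inhibitory neurons (edgeR adjusted p = 0.0135) to −3.09 ± 0.55 in oligodendrocyte precursors (edgeR adjusted p = 0.000806), with −1.46 ± 0.18 in choroid plexus (edgeR adjusted p = 1.73e-06) and −2.13 ± 0.48 in microglia (edgeR adjusted p = 0.00960). In microglia this was 5.08, 7.15, 9.66 and 6.65 CPM of Ifi27 in KO vehicle against 25.6 to 42.3 CPM in WT vehicle. Oligodendrocytes had 7.23, 6.07, 8.11 and 8.07 CPM against 28.3 to 39.6 CPM. KO vehicle libraries lay below WT vehicle libraries in both classes.

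Ly6e had negative differences in all 8 classes tested, from −2.56 to −0.58. It was called lower in 2 of the 6 classes where it passed the filter: excitatory neurons (−1.20 ± 0.26, edgeR adjusted p = 0.00205) and oligodendrocytes (−0.93 ± 0.28, edgeR adjusted p = 0.0220). The last call was lost at adjusted p of 0.0502 to 0.0823 without WT vehicle replicate 3 or KO vehicle replicate 1, 3 or 4. In excitatory neurons the KO vehicle libraries held 8.26, 5.41, 10.99 and 11.01 CPM against 26.0 to 33.1 CPM in WT vehicle. Fibroblasts had lower Ifitm3 (−2.87 ± 0.73, edgeR adjusted p = 0.0130). Their KO vehicle levels were 2.04, 2.38, 5.84 and 4.35 CPM of Ifitm2 and 0, 5.94, 1.46 and 2.90 CPM of Ifitm3, all below the WT vehicle libraries. Ly6e in KO vehicle fibroblasts was 4.09, 4.75, 0 and 5.81 CPM, also below. Ifitm2 and Ly6e in fibroblasts did not pass the filter on the WT vehicle and KO vehicle libraries alone, and are given without a p. Neither Ifi35 nor Lgals3bp was called in any class.

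Other values moved with genotype too. Malat1 was at 12680 to 27940 CPM in KO libraries against 53930 to 92193 CPM in WT libraries other than WT DMXAA replicate 3, and the microglial markers in excitatory neurons were at 24.3 to 34.1 CPM in KO vehicle against 68.7 to 91.3 CPM in WT vehicle. These markers were also lower in KO vehicle, with no overlap, in astrocytes (62.7 to 76.1 against 99.6 to 137 CPM) and oligodendrocytes (59.8 to 70.6 against 81.5 to 92.4 CPM). The same held in choroid plexus (112 to 183 against 208 to 317 CPM). In fibroblasts these markers overlapped, at 58.1 to 92.0 CPM against 83.7 to 88.4 CPM, as they did in endothelial nuclei (131 to 445 against 91.7 to 186 CPM). Their part in the differences between the genotypes was not tested.

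Relatives of the 9 genes were tested in all kept nuclei, from family lists that were also drawn up with earlier results known. Of all genes, 0.413% were called higher with DMXAA in WT, and 26.4% were called lower in KO vehicle against WT vehicle. Of 7 Ifitm genes 5 were tested, 3 of them relatives. With DMXAA in WT 0 of these 3 were called by edgeR, DESeq2 or limma, and 0 had an unadjusted p under 0.05, while in KO vehicle against WT vehicle Ifitm7 (−0.94 ± 0.22) and Ifitm10 (−0.32 ± 0.12) were lower. Of 27 Ly6-type genes 8 were tested, 6 of them relatives. With DMXAA in WT 0 of 6 were called by any of these tools, again with 0 at an unadjusted p under 0.05. In KO vehicle 2 of 6 were called lower, near the share over all genes, namely Ly6h (−1.20 ± 0.26, edgeR adjusted p = 0.00219) and Lynx1 (−1.32 ± 0.30, edgeR adjusted p = 0.00302). Ly6h and Lynx1 encode neuronal relatives that bind nicotinic acetylcholine receptors. Of the galectins and related genes 7 were tested beside Lgals3bp. With DMXAA in WT edgeR and limma called 0 and DESeq2 1 of 7, and Lgals8 (0.26 ± 0.08) and Lgals9 (1.04 ± 0.23) had an unadjusted p under 0.05, while Lgals1 (−1.36 ± 0.38) and Lgalsl (−0.72 ± 0.20) were lower in KO vehicle. Nmi, whose protein pairs with IFI35, was at 0.75 ± 0.17 with DMXAA in WT. It had an unadjusted edgeR p under 0.05 but was not called. The values of all these relatives include WT DMXAA replicate 3, and a missing call does not show that a gene stayed the same. In KO mice with DMXAA 0 genes of these lists were called.

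The 11 genes of the pathway itself given here were all tested. With DMXAA in WT, 3 of 11 were called higher: Irf7 (3.98 ± 0.49), Irf9 (1.54 ± 0.19) and Stat2 (0.94 ± 0.19), which encode interferon-induced transcription factors. Of 79 class tests 9 were called higher, where 0.413% of all genes and 0.189% of all class tests were called higher. The median over the 11 was 0.08 against 0.01 over all genes. This list, too, was drawn up with earlier results of these data known, so nothing is read from these counts. In KO libraries with DMXAA 0 of 11 and 0 of 79 were called. In KO vehicle against WT vehicle, 5 of 11 were called lower, Ifnar1 (−0.36 ± 0.07), Tyk2 (−0.21 ± 0.08), Irf3 (−1.29 ± 0.31, edgeR adjusted p = 0.00420), Tmem173, the STING gene (−0.84 ± 0.30, edgeR adjusted p = 0.0304), and Tbk1 (−0.21 ± 0.06). Jak1 was called higher (0.45 ± 0.12), where 26.4% of all genes were called lower and 22.1% higher.

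The genes whose level over the 14 classes was most like each of the 9 (Pearson r of log2(CPM + 1), WT vehicle means, 16377 genes) were listed as a description. Ly6a was most like Mall, Srarp and Gimap8 (r of 0.998 for Mall), Ifitm3 like Vim, Crip1 and Stom (0.957 for Vim), and Lgals3bp like Agpat2, Ctsc and Sdcbp (0.958 for Agpat2). Ifi35 was most like Zfp422, Trim34a and Msn (0.9499 for Zfp422), and Ifitm2 like Hmgn1, Trnau1ap and Ifit1 (0.935 for Hmgn1). Ly6e was closest to Mindy2, Wdr43 and Arpc3 (0.940 for Mindy2), and Ifi27 to Hmg20b, 1810058I24Rik and Ctnna1 (0.892 for Hmg20b). Ifi27l2a and Ifi44 did not reach the 10 CPM in any class that this comparison required. The points are classes of the same libraries, and rare classes give noisy levels.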

How the data were processed

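The deposited files hold raw UMI counts per gene and barcode, which the authors made from 10x Genomics 3′ libraries by counting reads on pre-mRNA (Cell Ranger 3.1.0 and mm10 per the labels, but Cell Ranger 6.1.2 per the file headers of all 16 matrices). The members and gene lists were chosen with earlier results of these data known. Of 155084 barcodes, those with 200 to 4000 genes and at most 5% mitochondrial UMIs were kept after removal of predicted doublets by simulated doublets, 347 to 1022 per library, which left 108878 nuclei. Libraries had 66059561 to 93228638 UMIs before filtering, and any pair shared 4 to 23 barcodes. Nuclei were clustered (leidenalg 0.10.2, resolution 0.5) and named from fixed markers. After the clusters were seen, it was decided that region markers count as markers of excitatory neurons and that clusters under 20 nuclei stay unnamed. Counts were summed per library and class, and classes with at least 20 nuclei in at least 2 libraries of each group were fitted by edgeR 4.0.16 (TMM, filterByExpr, quasi-likelihood, 2-sided) over all genes and all libraries, with Benjamini-Hochberg adjustment per class and 95% intervals from the t distribution on the residual degrees of freedom, 12 in all kept nuclei. The endothelial, choroid plexus and ependymal fits held 12 libraries each. The study tested nuclei by MAST, whereas here each mouse counts once, and p-values measure the spread between mice. On simulated counts with 200 genes changed 4-fold, 87.5% were recovered in microglia (8862 genes), 92.5% in excitatory neurons (17637) and 25.5% in endothelial nuclei (2594). The genes named are the 9 members, lists of their families and pathway, and the 3 genes most like each in level. Replicate numbers follow accession order. DESeq2 1.42.0, limma 3.58.1 (prior count 1), other size factors, no filter, other class limits and each library left out were tried. One gene of the interferon pathway list is not reported here, and the counts of that list leave it out.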

Additional observations from a re-analysis of the deposited data

Results flagged for a closer look

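Of 122 groups of 4 libraries checked gene by gene, 14 held a library whose gap to the nearest other exceeded Dixon's 95% critical value, where chance alone gives about 1 in 20. WT DMXAA replicate 3 was the low library in 6 of them: Ifitm2 (0.471 CPM, others 1.72 to 1.95) and Ifitm3 (1.49 CPM, others 9.55 to 10.6) in all kept nuclei, Ifi27 in astrocytes (27.6 CPM, others 175 to 196), excitatory neurons (3.84 CPM, others 18.2 to 19.2) and oligodendrocytes (36.7 CPM, others 160 to 173), and Ly6e in oligodendrocytes (5.56 CPM, others 10.4 to 10.98). WT DMXAA replicate 1 was high for Ifi44 (3.35 CPM, others 0.432 to 0.914).

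WT vehicle replicate 2 was high in all kept nuclei for Ifi27l2a (0.309 CPM, others 0.101 to 0.125) and Ly6a (2.68 CPM, others 0.481 to 0.743), and its endothelial class was the largest of the WT vehicle libraries, with 29 nuclei. Ifi35 was low in KO vehicle replicate 1 (1.17 CPM, others 1.88 to 1.98) and KO DMXAA replicate 4 (1.20 CPM, others 1.57 to 1.64). KO DMXAA replicate 2 was low for Ifi27 in astrocytes (4.81 CPM, others 8.26 to 8.70) and inhibitory neurons (2.05 CPM, others 3.12 to 3.33). KO DMXAA replicate 1 was high for Ifitm3 in excitatory neurons (0.129 CPM, others 0.0388 to 0.0536), a level that rests on 3 UMIs.

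The response of Lgals3bp to DMXAA in all kept nuclei differed between WT and KO mice by 3.05 ± 0.41 log2 units. The WT values entered the choice of this gene.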

How the results depend on the processing

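No value changed sign among called results. For DMXAA in WT, class calls of the 9 genes were 10 as reported, 11 with DESeq2, 6 with limma-trend, 27 with no filter on low counts and 4 with only the libraries compared. All-nuclei calls were 4 as reported, 6 with DESeq2, 5 with limma-trend and 2 with only the libraries compared. Called in the WT minus KO difference were 0 over classes as reported, 4 with DESeq2, 2 with limma-trend, 1 with RLE size factors and 2 with no filter, and 1 in all nuclei as reported and 3 with DESeq2. Leaving out each library in turn gave 6 to 24 class calls and 3 to 6 all-nuclei calls for DMXAA in WT (6 class calls without WT DMXAA replicate 1 or 2, 24 without replicate 3), 0 and 0 for DMXAA in KO, 12 to 19 and 3 to 5 for KO vehicle against WT vehicle, and 0 to 7 and 1 to 3 for the WT minus KO difference. Calls over all genes moved with the setting as well. For KO vehicle against WT vehicle they were 29103 of 106251 class tests as reported and 39812 of 103283 without WT DMXAA replicate 3. In all nuclei they were 9749 of 20104 and 12075 of 20377. For the WT minus KO difference they were 26 of 106251 and 116 of 103283 class tests. Ifnar1 in KO stayed at 62.6 to 65.6% of WT. Over all genes, DMXAA in KO gave 0 class calls as reported, 195 with no filter, 349 with only the libraries compared and 267 without WT DMXAA replicate 3, with 0 of the 9 genes among them each time. For DMXAA in WT the calls over all genes were 288 over classes as reported, 1200 with no filter and 175 with only the libraries compared, and in all nuclei 88 as reported, 146 with DESeq2 and 16 with only the libraries compared. The cause was not tested. No paired analysis was possible because the replicate numbers follow accession order and pair no mice. Sparse genes limit the rest: with 0 or 1 UMI of Ifi27l2a or Ifi44 in a KO group, a fall or a small rise was not detectable at this depth, and only 4 of the 9 genes passed the filter in microglia.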
